A study of Mus musculus with 8 samples.

Results

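Immediate early activity genes are 10 genes taken by name from the gene count table of this study, namely *Fos*, *Fosb*, *Fosl2*, *Jun*, *Junb*, *Egr1*, *Egr2*, *Egr3*, *Arc* and *Npas4*. They are 10 of 54307 gene identifiers, and 10 of 10 passed the filter on low counts. RNA was sequenced from periventricular tissue, which holds the ventricular-subventricular zone (V-SVZ), of 4 *Lrig1* knockout (KO) and 4 wild-type (WT) mice at 8 weeks of age. KO mice were homozygous for a CreERT2 cassette in the first exon of *Lrig1*, so that the gene was lost in all cells from the start of development, and WT littermates did not carry the cassette. All mice were of the 129-Elite strain, and no agent was named in the labels of either genotype. The WT group held 3 females and 1 male (replicate 2), and the KO group 2 females (replicates 2 and 4) and 2 males (replicates 1 and 3). The tissue of each mouse was taken from 1 hemisphere, and 1 library was made per mouse.

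Total counts per mouse lay between 47887437 and 61826150 in WT and between 52664769 and 74482334 in KO. *Lrig1* was between 13.5 and 45.6 CPM (counts scaled to library size) in the WT mice and between 1.17 and 4.15 in the KO mice, so the genotypes did not overlap, although its adjusted p was 0.286 (edgeR). Markers of the labelled tissue were present in every mouse, with 6 neuroblast markers summing to between 112 and 170 CPM and 6 ependymal markers to between 24.3 and 55.5. The content of neighbouring cortex differed widely between libraries. The 8 markers of cortical excitatory neurons summed to between 62.1 and 886 CPM in 7 mice and to 1834 CPM in WT replicate 2.

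Immediate early genes are transcribed within minutes of a stimulus without new protein synthesis. In neurons, calcium entry and ERK signalling act on CREB and on serum response factor with its ETS partners, which sit ready at these promoters. FOS and JUN family proteins pair to form the AP-1 transcription factor, EGR proteins are zinc finger transcription factors, NPAS4 is a neuronal bHLH-PAS transcription factor that answers mainly to calcium, and ARC is a postsynaptic protein that drives the removal of AMPA receptors. Glia, vessel cells and immune cells also express the FOS, JUN and EGR genes after growth factors or injury, while *Arc* and *Npas4* are mostly neuronal.

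Sequences before the start site are shown for 4 members, *Fos* and *Npas4* with low levels and wide spread, *Egr2* with the widest spread over mice, and *Fosb* with the narrowest. Of the 10 members, 7 had an entry in the RefSeq promoter table of GRCm38.p6, and *Egr2* had 5 start sites, of which 1 is shown. Each line gives the 250 bases before the start site, 5′ to 3′ on the strand of the gene. Capitals mark the core of the cAMP response element (TGACG), the CArG box bound by serum response factor, and an EGR site (GCGNGGGCG), each searched on both strands.
Fos (chr12:85473640-85473889, plus strand): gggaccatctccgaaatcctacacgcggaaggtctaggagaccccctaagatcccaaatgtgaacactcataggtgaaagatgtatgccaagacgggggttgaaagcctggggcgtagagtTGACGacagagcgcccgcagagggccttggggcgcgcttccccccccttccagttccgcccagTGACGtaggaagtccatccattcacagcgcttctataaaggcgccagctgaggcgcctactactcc
Npas4 (chr19:4989972-4990221, minus strand): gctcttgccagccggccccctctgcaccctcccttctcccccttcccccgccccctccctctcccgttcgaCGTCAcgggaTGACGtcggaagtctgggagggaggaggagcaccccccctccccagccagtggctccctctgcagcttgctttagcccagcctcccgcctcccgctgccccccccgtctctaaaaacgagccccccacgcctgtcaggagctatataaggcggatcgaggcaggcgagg
Egr2 (chr10:67537619-67537868, plus strand): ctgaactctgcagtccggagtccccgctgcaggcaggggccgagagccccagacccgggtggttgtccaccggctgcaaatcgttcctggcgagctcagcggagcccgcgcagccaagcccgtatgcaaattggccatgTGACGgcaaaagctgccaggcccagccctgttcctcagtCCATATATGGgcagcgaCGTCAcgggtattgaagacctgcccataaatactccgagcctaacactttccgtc
Fosb (chr7:19310046-19310295, minus strand): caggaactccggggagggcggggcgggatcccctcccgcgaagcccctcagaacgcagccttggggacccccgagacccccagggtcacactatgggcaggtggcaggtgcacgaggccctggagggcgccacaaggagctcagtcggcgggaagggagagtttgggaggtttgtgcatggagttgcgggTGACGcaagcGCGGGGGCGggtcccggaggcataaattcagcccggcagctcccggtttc
The core TGACG occurred at 2 places in *Fos*, *Npas4* and the window shown of *Egr2* and at 1 place in *Fosb* and *Junb*. It was found in 17.8% of 32851 promoter windows of this length. The *Egr2* window shown also held a CArG box, which starts 72 bases before the start site and was found in 1.47% of windows. Another *Egr2* window, from base 67535249 of chromosome 10, held none of the motifs searched. An EGR site lay in *Fosb* and *Fosl2*, and 4.70% of windows held it. The full element TGACGTCA and the AP-1 site TGANTCA, in 1.55% and 6.75% of windows, were in none of the windows of the 7 members. These matches describe the letters in a short window and were not tested against any binding data.

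The level of each gene was first compared between genes in TPM, a unit scaled for transcript length and depth. *Egr1* was highest, with a mean of 82.7 TPM over 8 mice (lowest 57.8, median 78.5, highest 126). *Egr3* followed with a mean of 74.9 TPM (lowest 43.0, highest 94.0). *Egr1* was above *Egr3* in 4 of 8 mice, so these neighbours in the order were not separated. *Junb* had a mean of 41.4 TPM, *Arc* of 26.7 and *Jun* of 19.6, and *Arc* was above *Jun* in 5 of 8 mice. The step from *Jun* to *Fos* was the single step in the order at which the ranges over 8 mice did not overlap. *Fos* had a mean of 7.10 TPM, *Fosl2* of 5.80, *Fosb* of 3.99 and *Egr2* of 3.25. *Fos* was above *Fosl2*, and *Fosb* above *Egr2*, in 6 of 8 mice. *Npas4* was lowest, with a mean of 1.13 TPM (lowest 0.411, highest 2.04), and stood below *Egr2* in 8 of 8 mice.

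**Figure D1:**
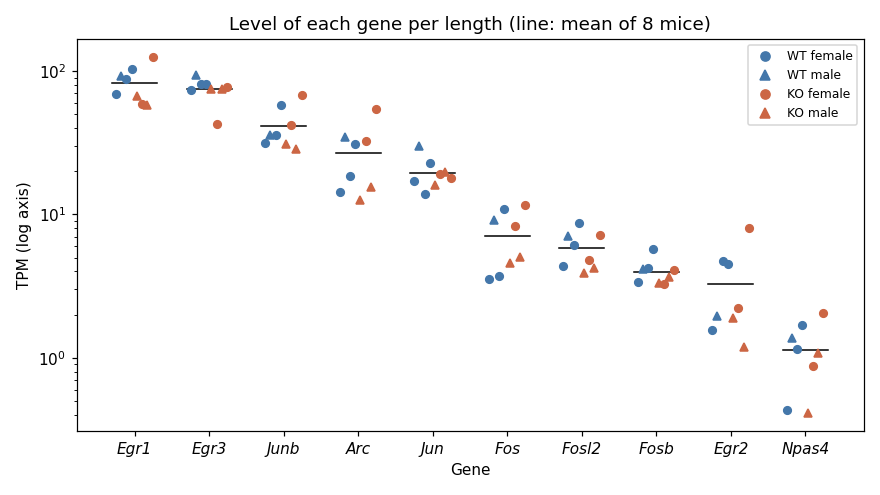
Level of each gene in TPM on a log axis, with 1 point per mouse (circles female, triangles male, blue WT, orange KO) and a line at the mean of 8 mice. *Egr1* and *Egr3* lie at the top with means of 82.7 and 74.9 TPM and *Npas4* at the bottom with 1.13, and the ranges of *Jun* and *Fos* do not touch.

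In 4 members nearly all reads came from 1 transcript. *Jun-201* held 100% of the reads of *Jun* in every mouse, and *Junb-201*, *Fosl2-201* and *Egr2-201* each had a median share of 100%. The other 6 members had reads on several transcripts. *Fos-201* held between 78.0% and 96.5% of the reads of *Fos*, and 2 shorter processed transcripts held the rest. Reads of *Egr1* fell mainly on the shorter transcript *Egr1-202* (3036 bases), with between 77.4% and 85.9%. *Egr3* differed from these, since the transcript annotated as a retained intron, *Egr3-202*, took between 25.1% and 33.8% of its reads. In *Fosb*, transcript *Fosb-205* had reads in 1 mouse, WT replicate 3, where it took 45.8% of the reads of the gene. The reads of *Arc* were divided between *Arc-201* (3055 bases) and *Arc-202* (3054 bases), of nearly equal length, with a median of 62.5% on the first. Reads of such overlapping transcripts are estimates by Salmon, and their split carries an error that the files do not give.

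Values between mice were then compared in CPM with TMM normalization. Among the AP-1 genes, *Fos* (ENSMUSG00000021250.14), the classical partner of JUN proteins, had 4.28, 8.64, 4.52 and 10.4 CPM in WT replicates 1 to 4 and at 4.78, 10.8, 4.80 and 14.0 in KO replicates 1 to 4. Both genotypes held mice near 4.5 CPM and mice above 8, and they overlapped. WT mice averaged 6.95 ± 3.03 CPM (SD, n = 4) and KO mice 8.62 ± 4.61 (SD, n = 4). The log2 fold change of KO over WT was 0.31 (standard error 0.43). *Fosb* (ENSMUSG00000003545.4), whose truncated product accumulates after repeated stimulation, was the steadiest of the 10 genes. WT mice had 9.32, 9.74, 11.5 and 12.4 CPM of it and KO mice 9.75, 8.90, 8.80 and 10.8. The log2 fold change was -0.17 (standard error 0.12), and the highest mouse was 1.41-fold above the lowest. *Fosl2* (ENSMUSG00000029135.11), which encodes FRA2, was at 21.8, 30.5, 34.5 and 37.9 CPM in WT and at 21.5, 23.7, 19.8 and 34.0 in KO. Of its KO mice 3 lay below 24 CPM together with WT replicate 1, and the log2 fold change was -0.33 (standard error 0.21).

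*Jun* (ENSMUSG00000052684.5), which also answers to JNK stress signalling, was at 39.4, 59.2, 36.5 and 46.2 CPM in WT and at 40.9, 43.4, 42.7 and 39.7 in KO. All 4 KO mice lay inside the range of the WT mice, with an SD of 1.68 CPM in KO and 10.1 in WT. *Junb* (ENSMUSG00000052837.8), an AP-1 partner that activates less strongly than JUN, was at 37.9, 37.4, 49.2 and 60.7 CPM in WT and at 41.6, 49.6, 31.7 and 78.6 in KO. KO replicate 4 was the highest mouse and KO replicate 3 the lowest, so the KO mice spanned the WT mice. The log2 fold change was -0.12 (standard error 0.14) for *Jun* and 0.12 (standard error 0.27) for *Junb*.

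**Figure D2:**
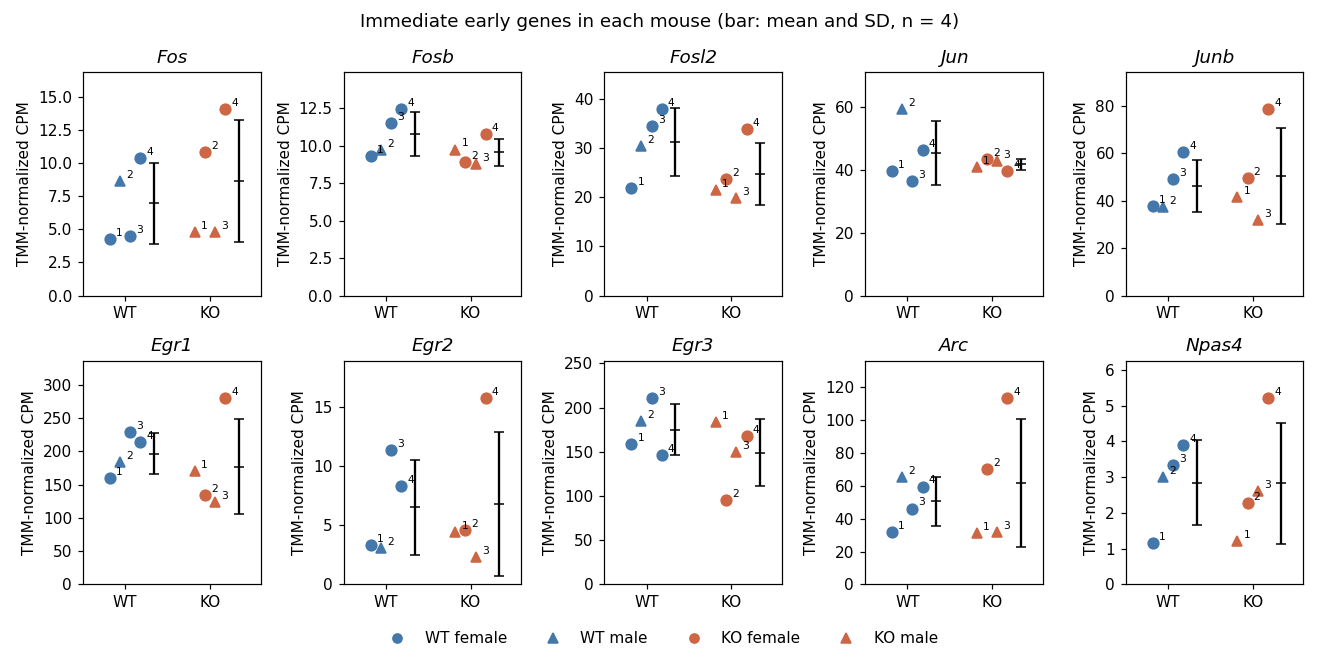
TMM-normalized CPM of each of the 10 genes, with 1 point per mouse (circles female, triangles male, replicate number beside the point) and a bar for the mean and SD of 4 mice. KO replicate 4 is the highest mouse in *Fos*, *Junb*, *Egr1*, *Egr2*, *Arc* and *Npas4*, and the genotypes overlap in all 10 panels.

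Among the EGR genes, *Egr1* (ENSMUSG00000038418.8), a widely used marker of neuronal activity, was at 159, 184, 230 and 214 CPM in WT and at 170, 134, 124 and 280 in KO. KO replicates 2 and 3 lay below every WT mouse and KO replicate 4 above every WT mouse. The log2 fold change was -0.15 (standard error 0.25). *Egr2* (ENSMUSG00000037868.16), also known for its role in Schwann cell myelination, was at 3.33, 3.09, 11.4 and 8.34 CPM in WT and at 4.47, 4.62, 2.35 and 15.8 in KO. It spanned 6.74-fold between mice, with WT replicates 3 and 4 and KO replicate 4 far above the other 5 mice. The fitted log2 fold change was 0.06 (standard error 0.63), while the difference of mean log2 CPM was -0.087. *Egr3* (ENSMUSG00000033730.5), a relative of *Egr1* that neuronal activity also induces, was at 159, 185, 211 and 146 CPM in WT and at 183, 95.6, 149 and 168 in KO. KO replicate 2 was the lowest mouse, and the other 3 KO mice lay inside the WT range. The log2 fold change was -0.23 (standard error 0.20).

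The neuronal effector *Arc* (ENSMUSG00000022602.15) was at 31.8, 65.3, 46.2 and 59.6 CPM in WT and at 31.0, 70.5, 32.0 and 114 in KO. The female KO mice, replicates 2 and 4, were the 2 highest of all mice, and the male KO mice were near the lowest WT mouse. WT mice averaged 50.7 ± 15.0 CPM (SD, n = 4) and KO mice 61.8 ± 39.1 (SD, n = 4), with a log2 ratio of 0.28 (standard error 0.43). *Npas4* (ENSMUSG00000045903.10) was at 1.15, 2.99, 3.35 and 3.89 CPM in WT and at 1.21, 2.27, 2.61 and 5.22 in KO. One mouse of each genotype was near 1.2 CPM, and the means were close, at 2.85 ± 1.19 CPM (SD, n = 4) and 2.83 ± 1.70 (SD, n = 4). *Npas4* rested on between 62 and 331 estimated counts per mouse, the fewest of the 10 genes.

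The question of whether loss of *Lrig1* moved these genes was tested by edgeR's quasi-likelihood test over all genes. Of the 10 members, 0 had an adjusted p under 0.1 and 0 had an unadjusted p under 0.05, where 0.00566% of the 17669 genes tested passed the adjusted threshold and 1.88% had an unadjusted p under 0.05. DESeq2 gave 0 members by either count as well, with 0.0400% of all genes past its adjusted threshold, or 0.669% with sex as a covariate. The log2 fold change was above 0 in 4 members and below 0 in 6, with a median of -0.064 beside -0.00094 over all genes tested. With the score of cortical markers as a covariate it was above 0 in 1 member, *Fos*, and below 0 in 9, with a median of -0.22. *Fosl2* then had an unadjusted p of 0.0389 (edgeR, log2 ratio -0.45), where 2.08% of all genes were under 0.05. The adjusted p was 1.0 for each member (edgeR, Benjamini-Hochberg over all genes tested) and lay between 0.838 and 1.0 across the alternatives. The genotypes overlapped in 10 of 10 members, where 1.53% of all genes tested had groups that did not overlap. Two-sided exact permutation tests over the 70 relabelings of 4 against 4 mice gave p from 0.229, for *Fosb* and *Fosl2*, to 0.971, for *Egr2*. The 95% interval of the log2 fold change, from the standard error with 6 degrees of freedom, was narrowest for *Fosb*, from -0.47 to 0.13, and for *Jun*, from -0.47 to 0.22. It reached from -0.74 to 1.36 for *Fos* and from -0.76 to 1.33 for *Arc*. For *Npas4* it reached from -1.17 to 1.15 and for *Egr2* from -1.49 to 1.61. A 2-fold rise therefore lay inside the interval of each of these genes, and a 2-fold fall inside those of *Npas4* and *Egr2*.

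The spread between mice of 1 genotype was wide for most members. The SD of log2 CPM around the genotype means was above the median of all genes tested, 0.21, in 9 of the 10 members, with a median of 0.43. *Egr2* had an SD of 1.05, *Npas4* of 0.82, *Fos* of 0.73 and *Arc* of 0.72, and these 4 lay above the 90th percentile of all genes. *Fosb* had an SD of 0.17, at the 38.6th percentile, and *Jun* of 0.22.

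KO replicate 4, a female, was the highest of the 8 mice in 6 of the 10 genes, and KO replicate 3, a male, was the lowest in 5. *Fosb* and *Fosl2* were highest in WT replicate 4, *Jun* in WT replicate 2 and *Egr3* in WT replicate 3. On the log2 scale KO replicate 4 deviated from the mean of 8 mice by a median of 0.70 over the 10 genes, and KO replicate 3 by -0.50. WT replicate 4 was above the mean in 9 of 10 genes, with a median of 0.34, and WT replicate 1 in 1 of 10, with -0.30. Mice of each genotype therefore stood at both ends of the order. Without KO replicate 4 the log2 fold change was below 0 in 10 of 10 members, with a median of -0.26. This mouse was singled out by its high values in these same genes, and leaving it out lowers the KO values by that choice. The p-values of this fit are therefore a description only. *Egr1* then had a log2 fold change of -0.46 (unadjusted p = 0.0209) and *Fosl2* of -0.52 (unadjusted p = 0.0218), both with an adjusted p of 1.0 (edgeR). Of all genes, 1.32% had an unadjusted p under 0.05 in that fit. That of *Egr2* went from 0.06 to -0.78 and that of *Arc* from 0.28 to -0.19 when this mouse was left out. KO replicate 4 also had the lowest sum of the 8 cortical excitatory neuron markers, 62.1 CPM, and its sums of heat shock genes (2721 CPM) and glucocorticoid response genes (205 CPM) lay inside the range of the other mice. With the score of these cortical markers as a covariate over all 8 mice, the log2 ratio of KO to WT was -0.070 for *Arc*, -0.51 for *Egr2* and -0.12 for *Junb*, each above 0 without it. In bulk tissue fewer cells of a type and less RNA per cell cannot be told apart.

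**Figure D3:**
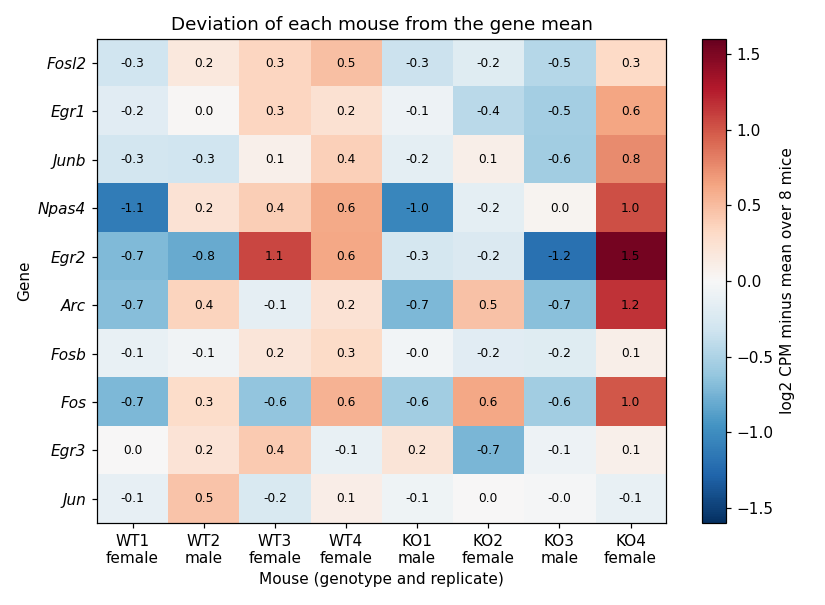
Log2 CPM of each gene in each mouse minus its mean over the 8 mice (red above, blue below), with the genes ordered by their correlation with the mean of all 10. The column of KO replicate 4 is above the mean in 9 of 10 genes and that of KO replicate 3 in 1, while *Jun* and *Egr3*, at the bottom, follow another order of mice.

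The genes were compared with each other over the 8 mice in 45 pairs. Pearson's r was above 0 in 37 pairs, with a median of 0.57. In 5 pairs the permutation p of r had a Benjamini-Hochberg adjusted value under 0.1, and for Spearman's rho 0 pairs did. *Fos* and *Arc* had r = 0.93 (exact permutation p = 0.00211, adjusted p = 0.0316) and rho = 0.86 (exact permutation p = 0.0107, adjusted p = 0.161). Without the 2 mice farthest from the median of *Fos*, r was 0.86. *Junb* and *Egr2* had r = 0.92 (exact permutation p = 0.00112, adjusted p = 0.0316) and rho = 0.93 (exact permutation p = 0.00223, adjusted p = 0.10), and r was 0.79 without the 2 mice farthest in *Junb*. *Fosb* and *Fosl2* had r = 0.89 (exact permutation p = 0.00193, adjusted p = 0.0316) and rho = 0.83 (exact permutation p = 0.0154, adjusted p = 0.173), with r = 0.80 without the 2 farthest in *Fosb*. The other pairs that passed were *Egr1* with *Egr2* (r = 0.88) and *Egr1* with *Fosl2* (r = 0.85). Around the genotype means these 5 values lay between 0.84 and 0.93. *Jun* and *Egr3* stood apart, with r of 0.12 and 0.25 to the mean of the 10 standardized genes, of which they are members, where the other 8 genes had from 0.70 to 0.95. The lowest r was that of *Jun* with *Egr2*, -0.43 (exact permutation p = 0.302, adjusted p = 0.484; rho = -0.38, exact permutation p = 0.36, adjusted p = 0.558), and r was -0.0080 without the 2 mice farthest in *Jun*. All genes of a mouse share its library, scaling and tissue content. How often pairs of other genes reach such values over these mice was not tested.

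Among the genes that are no member, those most like the mean of the 10 standardized members over the 8 mice, by Pearson's r, were *Nr4a1* (0.97), *Midn* (0.94), *Cited4* (0.94), *Speer4cos* (0.92) and *Mid1* (0.91). They are the highest of all genes tested, so no p is given. *Nr4a1*, an orphan nuclear receptor gene that is itself induced by activity, was at 26.5, 42.3, 63.4 and 71.0 CPM in WT and at 30.8, 42.8, 22.1 and 94.9 in KO. KO replicate 4 was its highest mouse and KO replicate 3 its lowest. *Speer4cos* lay below 0.24 CPM in every mouse.

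Male mice were compared with female mice with genotype in the model, since sex was unevenly spread over the genotypes. Of the members, 0 passed the adjusted threshold, where 3.72% of all genes tested did, and 2 of 10 had an unadjusted p under 0.05, where 15.9% of all genes did. *Egr2* was at 3.09, 4.47 and 2.35 CPM in the males and at 3.33, 11.4, 8.34, 4.62 and 15.8 in the females. Every male was below 4.5 CPM together with 1 female, WT replicate 1, and the log2 difference of male against female was -1.47 (standard error 0.52, adjusted p = 0.219, edgeR). *Junb* was at 37.4, 41.6 and 31.7 CPM in the males and at 37.9, 49.2, 60.7, 49.6 and 78.6 in the females, a log2 difference of -0.63 (standard error 0.21, adjusted p = 0.199, edgeR). DESeq2 with genotype as a covariate called *Junb* (adjusted p = 0.0544, Benjamini-Hochberg) among 5.12% of all genes. Without a filter on low counts, edgeR called *Junb* (adjusted p = 0.0438) and *Egr2* (adjusted p = 0.0406) among 4.52% of all genes. Without KO replicate 4, 0 members had an unadjusted p under 0.05, and the median log2 difference of the members went from -0.41 to -0.096. With the replicate number as a block over all 8 mice, that median was -0.043, with 3 members above 0 and 7 below. Without that block and with all mice, the difference was below 0 in 8 members, with *Jun* (0.24) and *Egr3* (0.24) above. Males and females also differed in tissue content, with cortical markers at 489, 886 and 1834 CPM in the males and between 62.1 and 366 in the females, so sex and the content of cortical tissue cannot be told apart.

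**Figure D4:**
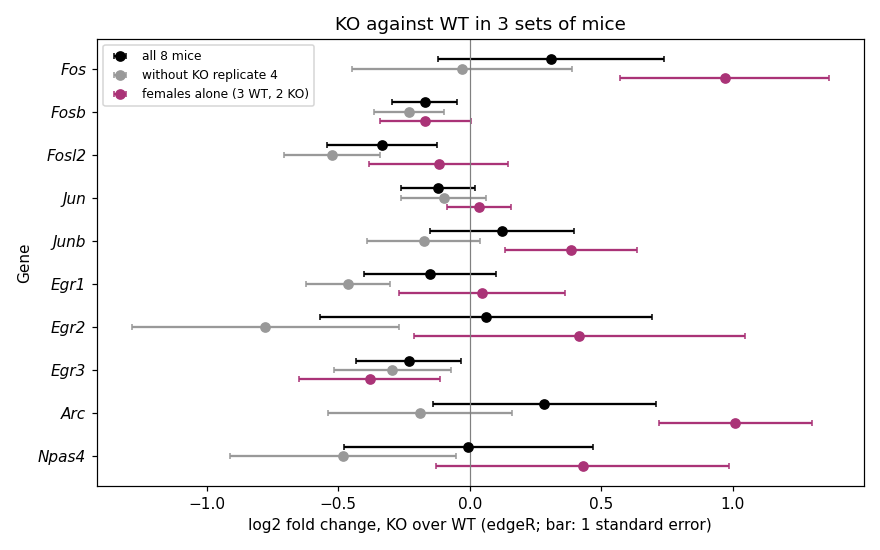
Log2 fold change of KO over WT for each gene from edgeR, with bars of 1 standard error, for all 8 mice (black), without KO replicate 4 (grey) and for the 3 WT and 2 KO females (purple). Without KO replicate 4, the highest mouse in 6 of these genes, all 10 genes are below 0, and in females *Fos* is at 0.97 and *Arc* at 1.01.

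In females alone, 3 WT against 2 KO, 0 members passed the adjusted threshold, where 0.0166% of 18041 genes did. The log2 ratio of KO to WT was 1.01 for *Arc* (standard error 0.29, unadjusted p = 0.0122, adjusted p = 0.844, edgeR) and 0.97 for *Fos* (standard error 0.40, unadjusted p = 0.0474, adjusted p = 0.844, edgeR), and 5.31% of all genes had an unadjusted p under 0.05. Both female KO mice were above all 3 female WT mice in these genes, at 70.5 and 114 CPM against 31.8, 46.2 and 59.6 for *Arc* and at 10.8 and 14.0 against 4.28, 4.52 and 10.4 for *Fos*. In males the order was the opposite. *Arc* was at 31.0 and 32.0 CPM in the male KO mice and at 65.3 in the male WT mouse, and *Fos* at 4.78 and 4.80 against 8.64. This opposite order was seen in 2 of the 10 members, *Fos* and *Arc*, where 6.63% of all genes tested showed it in either direction. Among females the cortical excitatory neuron markers also separated the genotypes. They summed to 87.3 and 62.1 CPM in KO replicates 2 and 4 and to 366, 98.8 and 263 in WT replicates 1, 3 and 4. Genotype and the content of cortical tissue in females therefore cannot be told apart.

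The difference between the sexes was itself fitted as a genotype by sex term, after these values had been seen. The log2 difference of the male from the female effect was -2.06 for *Arc* (standard error 0.45, unadjusted p = 0.00208, adjusted p = 0.621, edgeR) and -1.81 for *Fos* (standard error 0.61, unadjusted p = 0.0196, adjusted p = 0.63, edgeR). *Jun* had -0.53 (standard error 0.19, unadjusted p = 0.0261, adjusted p = 0.63, edgeR), with the male WT mouse at 59.2 CPM and the male KO mice at 40.9 and 42.7. Of the members, 0 passed the adjusted threshold, where 0.00566% of all genes tested did, and these 3 had an unadjusted p under 0.05, where 7.48% did. DESeq2 called *Arc* (adjusted p = 0.000479, Benjamini-Hochberg) and *Fos* (adjusted p = 0.0752) among 0.844% of all genes. Without a filter, edgeR called both (adjusted p = 0.000277 and 0.0336) among 1.30% of all genes. The male effect rests on 1 WT mouse, WT replicate 2, which also had the highest cortical markers. In both genotypes *Fos* and *Arc* were lower in replicates 1 and 3 than in replicates 2 and 4. The KO males are replicates 1 and 3 and the KO females replicates 2 and 4. No replicate block was fitted for this term. Genotype in males, replicate number, that single mouse and its content of cortical tissue cannot be told apart.

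**Figure D5:**
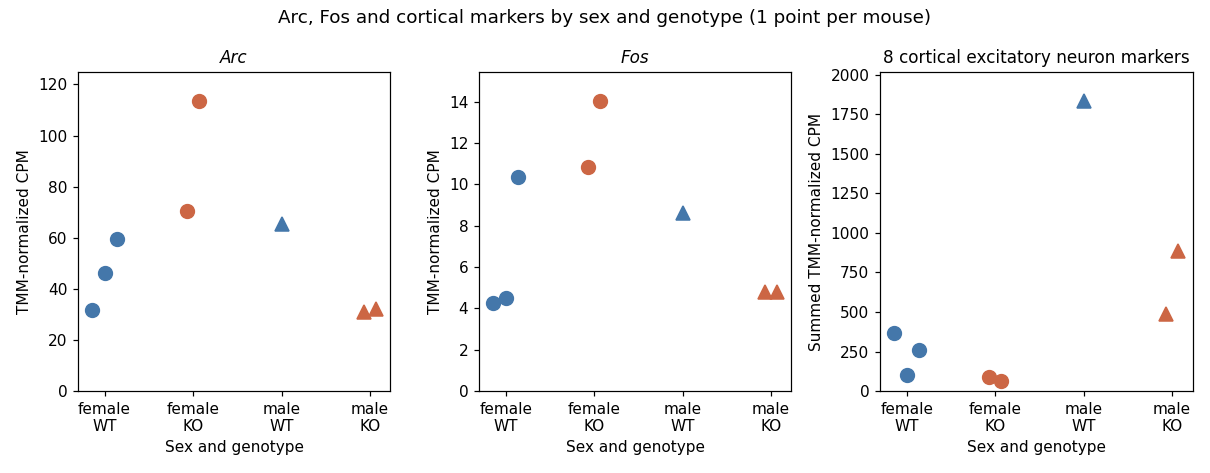
*Arc*, *Fos* and the sum of 8 cortical excitatory neuron markers in TMM-normalized CPM, by sex and genotype, with 1 point per mouse. Female KO mice are above female WT mice and male KO mice below the male WT mouse in *Arc* and *Fos*. That male WT mouse has the highest cortical sum, 1834 CPM, and the female KO mice have the lowest, 87.3 and 62.1 CPM.

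Genes around the members in the same pathway were described from lists. Of 24 upstream regulators, 24 were tested and 0 passed the adjusted threshold or an unadjusted p under 0.05 in KO against WT. Of these 3 were above 0 and 21 below, with a median log2 fold change of -0.12. *Mef2d*, a calcium-responsive transcription factor, averaged 243 ± 3.16 CPM (SD, n = 4) over WT mice and 219 ± 15.0 (SD, n = 4) over KO mice, with groups that did not overlap. It was the 1 gene of this list without overlap, where 1.53% of all genes tested had none, and its log2 fold change was -0.15 (adjusted p = 1.0, edgeR). *Grin1*, the obligate NMDA receptor subunit, had a log2 fold change of -0.16, *Camk2a*, a calcium-activated kinase of excitatory synapses, of -0.37, and *Crtc1*, a CREB coactivator, of -0.19. *Camk2a* was at 4694 CPM in WT replicate 2, the mouse with the highest cortical markers, and between 2035 and 2913 in the others.

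Of 21 other induced transcription regulators, 20 were tested, 0 passed either threshold, and 6 were above 0 and 14 below, with a median of -0.079. The 4 with the smallest p were *Nr4a3* (log2 fold change -0.40), a relative of *Nr4a1*, the clock gene *Per1* (-0.30), *Klf10* (-0.39), a TGF*β*-inducible repressor, and the antiproliferative gene *Btg2* (0.26). Of 23 induced effector genes, 23 were tested and 0 passed the adjusted threshold, with 6 above 0, 17 below and a median of -0.12. Here 2 had an unadjusted p under 0.05, both lower in KO, where 1.88% of all genes tested had one. *Dusp14*, a phosphatase of MAP kinases, averaged 33.9 ± 7.60 CPM (SD, n = 4) over WT mice and 25.4 ± 3.77 (SD, n = 4) over KO mice, with a log2 ratio of -0.42 (standard error 0.17, unadjusted p = 0.0393, adjusted p = 1.0, edgeR). *Trib1*, a pseudokinase gene, averaged 10.9 ± 3.26 CPM (SD, n = 4) over WT mice and 8.01 ± 0.585 (SD, n = 4) over KO mice, with a log2 ratio of -0.45 (standard error 0.19, unadjusted p = 0.0416, adjusted p = 1.0, edgeR). *Dusp6*, the ERK phosphatase that ERK itself induces, had -0.30, and *Plk3*, a stress-induced kinase, had -0.33. In these 4 genes the values of KO and WT mice overlapped.

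Markers of other cells were read beside these values. The markers of striatal medium spiny neurons summed to between 2359 and 7024 CPM in WT and between 3511 and 5637 in KO, and were lowest in WT replicate 2. Astrocyte markers summed to between 3908 and 4408 CPM in WT and between 3568 and 3903 in KO, sums that narrowly did not overlap. Taken singly, 0 of the 6 astrocyte markers had groups without overlap. Microglial markers summed to between 428 and 578 CPM in WT and between 412 and 520 in KO, endothelial markers to between 151 and 202 and between 167 and 187, and oligodendrocyte markers to between 6664 and 7236 and between 5592 and 7114. Choroid plexus markers lay between 16.4 and 86.6 CPM and blood markers between 139 and 491 over all mice. Heat shock genes summed to between 2557 and 3425 CPM in WT and between 2622 and 3045 in KO, and glucocorticoid response genes to between 188 and 215 and between 193 and 206. No listed marker was at 0 in every mouse. None of the genes in these lists passed the adjusted threshold in KO against WT, and apart from the cortical markers their part in the members' values was not tested.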

How the data were processed

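Periventricular tissue of 8 mice was sequenced after polyA selection. The authors ran Salmon against Gencode M29 (GRCm39) after bcl2fastq 2.20 and deposited gene-level estimated counts and, for every mouse, transcript-level estimated counts and TPM. The deposited counts were not normalized, and how transcripts were summed to genes is not given in the sources used here. Gene table columns were assigned to mice by the animal tags of their own files. Gene names came from Gencode M21, which named 94.8% of identifiers, and deposited TPM were summed per gene over the 97.4% of transcripts it matched.

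Estimated counts were rounded and fitted with edgeR 4.0.16 in R 4.3.3 (TMM, filterByExpr, quasi-likelihood test, Benjamini-Hochberg over 17669 genes, threshold adjusted p under 0.1). Standard errors are the log2 fold change over the square root of F. Log2 CPM used a prior count of 2. DESeq2 1.42.0 was an alternative. On simulated counts for KO against WT with 200 of 17669 genes changed by 2 on the log2 scale, 173 were recovered by edgeR beside 10 false calls, and 177 by DESeq2 with sex as a covariate beside 92 false calls. In the measured counts edgeR did not call *Lrig1* itself, at a log2 fold change of -3.80 (adjusted p = 0.286, edgeR). The authors, using DESeq2, ranked *Lrig1* first by significance among the genes lowered in KO. The simulated counts were drawn at the dispersion estimated for each gene from these mice. They held no structure shared between genes, such as tissue content or sex. Whether the recovery holds with such structure was not tested. Over all genes, deviations of same-numbered mice from their genotype means had correlations from -0.22 to 0.27. Those of differently numbered mice ranged from -0.40 (WT replicate 2 with KO replicate 4) to 0.54 (WT replicate 2 with KO replicate 3). The labels name no pairing, and mice were treated as unpaired. Named genes were the members, *Lrig1*, up to 4 genes of smallest p in each of 3 lists, and the 5 genes most like the members. Members and lists were chosen with earlier results of these data known. P-values rest on the spread between these mice, which includes their differences in tissue content. The permutations for correlations exchanged mice across genotype and sex.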

Additional observations from a re-analysis of the deposited data

Results flagged for a closer look

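Over 50 groups of 4 mice, the 10 genes and 15 sums of lists in each genotype, the gap of 1 mouse to its nearest neighbour exceeded the 95% critical value of Dixon's test in 3 (6%), while about 1 in 20 does so by chance. *Egr2* reached 15.8 CPM in KO replicate 4, and the next KO mouse had 4.62. The 8 cortical excitatory neuron markers summed to 1834 CPM in WT replicate 2 and to at most 366 in the other WT mice. The upstream regulators summed to 8817 CPM in WT replicate 2 and to at most 6698 in the other WT mice.

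*Fos* and *Arc* stood out because every female KO mouse was above every female WT mouse and every male KO mouse below the male WT mouse. The tested difference of the male from the female effect on the log2 scale was -1.81 for *Fos* and -2.06 for *Arc*, neither past the threshold in edgeR (adjusted p = 0.63 and 0.621, Benjamini-Hochberg). With 1 mouse left out in turn, other than the male WT mouse, it lay between -2.35 and -1.59 for *Fos* and between -2.36 and -1.67 for *Arc*, all with an adjusted p above the threshold.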

How the results depend on the processing

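In KO against WT 0 members were called under every alternative run. Over all genes, edgeR called 1 gene, DESeq2 12, DESeq2 with sex 201, no filter 2, a minimum of 10 counts 0, sex as a covariate 2, the cortical score 2, females alone 3, and leaving out 1 mouse from 0 (without WT replicate 1 or 4) to 3 (without WT replicate 2), with 2 without WT replicate 3. With the replicate number as a block, edgeR called 0 genes and 0 members. The labels do not say what the replicate number stands for. Under that block the standard error went from 0.43 to 0.12 for *Fos* and from 0.47 to 0.20 for *Npas4*. It went from 0.43 to 0.23 for *Arc* and from 0.20 to 0.22 for *Egr3*. Whether same-numbered mice share a batch was not tested. Of 180 values of single members, 158 kept their direction and 22 turned it, all with an adjusted p of at least 0.838. With sex as a covariate *Npas4* was at 0.039, and at 0.030 in DESeq2 with sex. In females alone *Npas4* was at 0.43, *Jun* at 0.034 and *Egr1* at 0.048, and the median of the members was 0.22. With the cortical score as a covariate *Junb* was at -0.12, *Egr2* at -0.51 and *Arc* at -0.070, the median was -0.22, and with the replicate block *Egr2* was at -0.0100. Leaving out 1 mouse gave from -0.26 (without KO replicate 4) to 0.046 for the median, from -0.19 to 0.51 for *Arc*, from -0.78 to 0.47 for *Egr2*, from -0.030 to 0.57 for *Fos*, from -0.21 to 0.032 for *Jun*, from -0.18 to 0.29 for *Junb* and from -0.48 to 0.24 for *Npas4*. The 657 genes called between the sexes became 1538 in DESeq2, 1360 with no filter, 7 without the genotype term and 10 with the replicate block. They were 10 without WT replicate 2, 59 without KO replicate 3, 264, 316 and 387 without WT replicates 1 and 4 and KO replicate 2, and 1462 without KO replicate 1. Members called in male against female were 0 in edgeR, 1 in DESeq2 and 2 with no filter, and 0 with 1 mouse left out. In the genotype by sex term, added after seeing the data, they were 0, 2 and 2, and 0 with 1 mouse left out. What caused these shifts was not tested.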
